A study of Mus musculus with 10 samples.

Results

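The 9 transcripts described here are known from projection neurons of the striatum, and they were measured in RNA from a neighbouring region, the barrel field of the mouse primary somatosensory cortex (S1BF). They are Drd1, Drd2, Penk, Adora2a, Rgs9, Pde10a, Ppp1r1b, Gpr6 and Syndig1l, each found once by gene name among the 52636 genes of the count table. They were chosen by name with their levels in these libraries, and the library pattern of those levels, already known, as a measure of where the dissection ended. Their own values are therefore a description and carry no test. The spiny projection neurons of the striatum fall into a direct pathway class, which carries the dopamine receptor D1, and an indirect pathway class, which carries the dopamine receptor D2, the adenosine receptor Adora2a and enkephalin. Both classes read dopamine through cyclic AMP, protein kinase A and the inhibitor DARPP-32. The striatum lies beneath the deep layers and white matter of the somatosensory cortex, and cortical neurons also express some of these genes, Drd1 and Ppp1r1b in deep layer neurons and Penk in interneurons among them.

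Libraries came from C57BL/6 mice at postnatal day 17. The Loxp group (n = 4) carried the floxed Rxra allele Rxratm1Krc/J with no Cre. The Hetero group (n = 2) carried Nex-cre with a heterozygous conditional deletion of Rxra, and the cKO group (n = 4) carried Nex-cre with the full conditional deletion. Rxra encodes the retinoid X receptor alpha and is floxed in all 3 groups, and Nex-cre, a Cre at the Neurod6 locus, acts in excitatory cortical neurons and not in striatal projection neurons. Nothing in the labels says that the libraries of a group came from separate animals, so p-values measure only the spread between these samples.

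Total counts ran from 19332990 to 26086337 per library, and 18455 genes passed the low-count filter, all 9 transcripts among them. Levels are in CPM, counts relative to the TMM-scaled library total. Rxra counted over the whole gene stood at 24.5, 21.6 and 28.3 CPM in Loxp 1, 2 and 3. It stood at 31.8 in the library labelled Loxp 4, at 23.2 and 26.4 in Hetero and at 29.0 to 32.3 in cKO. Group means were 26.5 ± 4.43 CPM for Loxp (SD, n = 4), 24.8 ± 2.26 for Hetero (SD, n = 2) and 30.7 ± 1.74 for cKO (SD, n = 4), so a loss of Rxra was not seen at the level of the whole gene in cKO. Neurod6, whose locus carries Nex-cre, stood at 66.7, 55.7 and 61.9 CPM in Loxp 1, 2 and 3 but at 34.9 in the library labelled Loxp 4, within the 22.9 to 38.1 CPM of the Cre carriers. The library labelled Loxp 4 therefore goes against its label for this gene. Loxp means of the 9 transcripts and the median fold changes against Loxp are also given without it. Slc17a7, the vesicular glutamate transporter of cortical excitatory neurons, lay between 2125 and 2612 CPM over the 10 libraries. For the transcripts described below Loxp 2 and cKO 2 stand apart from the other 8 libraries, and group means and median fold changes are given with and without them. The values of a group are listed in the order of its replicate numbers.

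The transcripts differed far more between libraries of a group than between genotypes, and the same libraries were low or high for 8 of the 9. The lowest libraries were Loxp 2 and cKO 2 for every transcript but Gpr6. Loxp 1, Loxp 3 and cKO 1 were the highest for the same 8. The summed level of the 9 was 1054, 215, 875 and 553 CPM in Loxp, it was 621 and 464 in Hetero, and it was 982, 208, 609.5 and 622 in cKO. In bulk tissue, fewer cells of a type and less RNA per cell cannot be told apart.

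**Figure D1:**
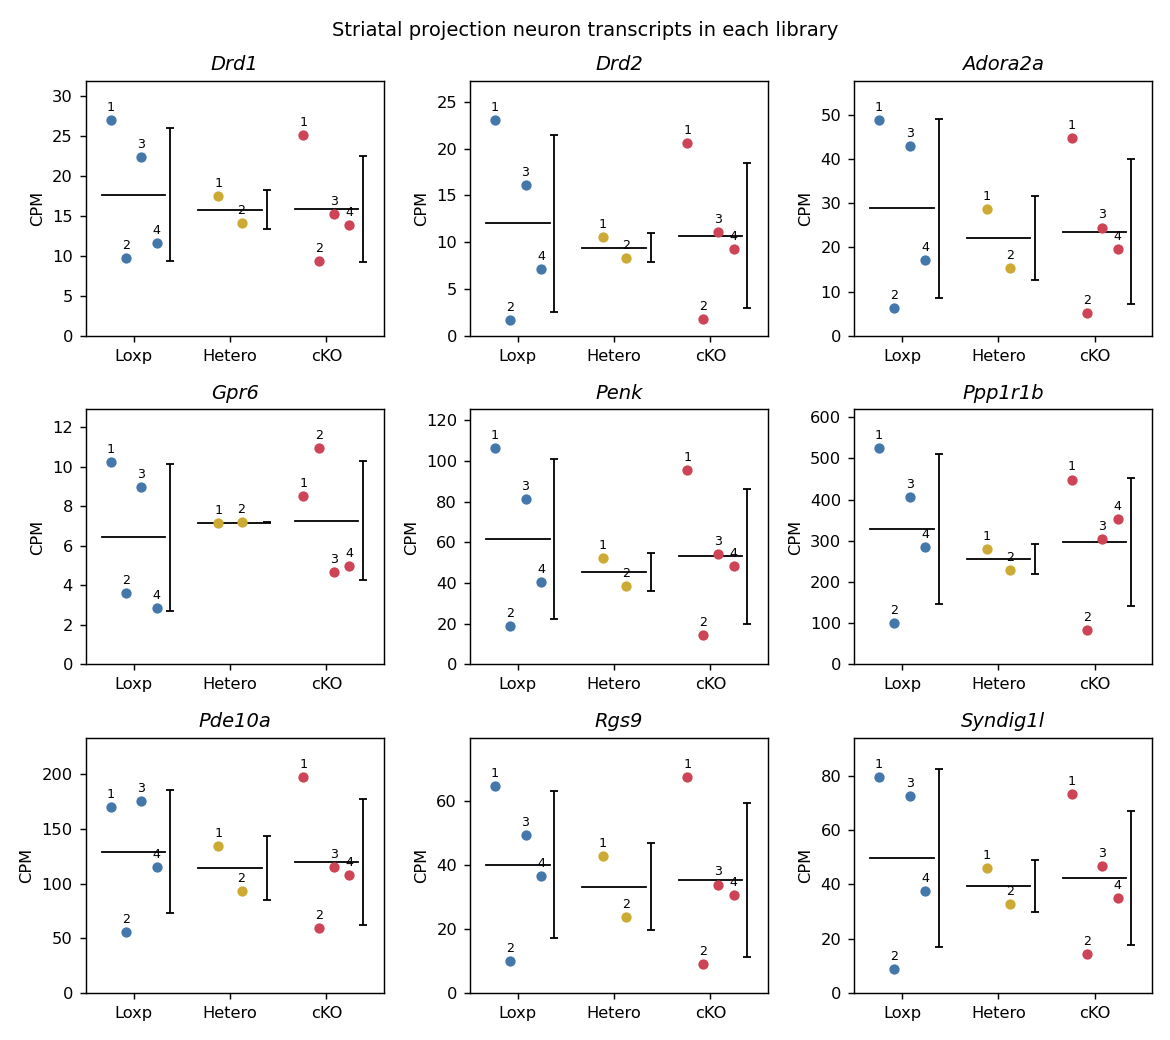
Level of each of the 9 striatal transcripts (CPM, linear axis from 0) in every library by group; numbers beside the points are replicate numbers, horizontal lines are group means and the bars beside them ±1 SD (Loxp n = 4, Hetero n = 2, cKO n = 4). Libraries 2 of Loxp and cKO lie lowest in all panels but that of Gpr6, where cKO 2 is the highest of the 10 at 10.9 CPM.

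Drd1 encodes the receptor through which dopamine raises cyclic AMP in direct pathway neurons (GRCm38 chromosome 13, 54051183 to 54055705, minus strand). It stood at 27.0, 9.76, 22.4 and 11.6 CPM in Loxp, at 17.5 and 14.1 in Hetero, and at 25.1, 9.41, 15.2 and 13.9 in cKO. The range across libraries was 2.87-fold, the smallest of the 9, and the groups overlapped. The mean of the other 3 libraries was 2.08 times Loxp 2 in Loxp and 1.92 times cKO 2 in cKO. Group means were 17.7 ± 8.36 CPM for Loxp (SD, n = 4), 15.8 ± 2.44 for Hetero (SD, n = 2) and 15.9 ± 6.62 for cKO (SD, n = 4). Without Loxp 2 and cKO 2 they were 20.3 ± 7.93 for Loxp and 18.1 ± 6.13 for cKO, and without the library labelled Loxp 4 the Loxp mean was 19.7 ± 8.94 (SD, n = 3 in each).

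Drd2 encodes the receptor through which dopamine lowers cyclic AMP in indirect pathway neurons (chromosome 9, 49340627 to 49408177, plus strand). It stood at 23.1, 1.67, 16.2 and 7.18 CPM in Loxp, at 10.5 and 8.32 in Hetero, and at 20.6, 1.77, 11.1 and 9.24 in cKO. The highest library held 13.8 times the lowest, the widest range of the 9. Loxp 2 and cKO 2 nearly coincided, and the other libraries averaged 9.24 times Loxp 2 in Loxp and 7.72 times cKO 2 in cKO. Group means were 12.02 ± 9.48 CPM for Loxp (SD, n = 4), 9.42 ± 1.56 for Hetero (SD, n = 2) and 10.7 ± 7.75 for cKO (SD, n = 4), which overlap within 1 SD. Leaving out Loxp 2 and cKO 2 gave 15.5 ± 7.97 for Loxp and 13.7 ± 6.09 for cKO, and leaving out the library labelled Loxp 4 gave a Loxp mean of 13.6 ± 10.9 (SD, n = 3 in each).

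The ratio of Drd2 to Drd1 counts separated the same libraries. It lay at 0.854, 0.172, 0.721 and 0.621 in Loxp, at 0.601 and 0.591 in Hetero, and at 0.821, 0.188, 0.731 and 0.666 in cKO. The ratios of Loxp 2 and cKO 2 lay below those of the other 8 libraries, which ran from 0.591 to 0.854. The ratio of Adora2a to Drd1 set the same 2 libraries below the other 8, with 0.657 in Loxp 2 and 0.550 in cKO 2 against 1.096 to 1.91 elsewhere.

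Adora2a encodes the adenosine receptor that raises cyclic AMP in indirect pathway neurons and opposes the dopamine receptor D2 there (chromosome 10, 75316877 to 75334784, plus strand). Its levels lay at 48.8, 6.41, 42.9 and 17.1 CPM in Loxp, at 28.8 and 15.4 in Hetero, and at 44.7, 5.18, 24.5 and 19.7 in cKO. Loxp 2 and cKO 2 were below all others, by 5.66 and 5.72 times against the rest of their groups, and the 3 groups overlapped. Group means were 28.8 ± 20.3 CPM for Loxp (SD, n = 4), 22.1 ± 9.43 for Hetero (SD, n = 2) and 23.5 ± 16.3 for cKO (SD, n = 4). The means were 36.3 ± 16.8 for Loxp and 29.6 ± 13.3 for cKO without Loxp 2 and cKO 2, and 32.7 ± 22.9 for Loxp without the library labelled Loxp 4 (SD, n = 3 in each).

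Gpr6 encodes an orphan receptor of indirect pathway neurons that raises cyclic AMP without a known ligand (chromosome 10, 41069977 to 41072285, minus strand). It was the exception. Its levels lay at 10.3, 3.64, 8.96 and 2.83 CPM in Loxp, at 7.15 and 7.19 in Hetero, and at 8.51, 10.9, 4.67 and 4.97 in cKO. The highest library was cKO 2, where the other 8 transcripts were among their 2 lowest values, and the lowest was the library labelled Loxp 4. The other cKO libraries averaged 0.554 times cKO 2, whereas the other Loxp libraries averaged 2.02 times Loxp 2. Group means were 6.42 ± 3.73 CPM for Loxp (SD, n = 4), 7.17 ± 0.0292 for Hetero (SD, n = 2) and 7.27 ± 3.00 for cKO (SD, n = 4). Without Loxp 2 and cKO 2 they were 7.35 ± 3.97 for Loxp and 6.05 ± 2.14 for cKO, and without the library labelled Loxp 4 the Loxp mean was 7.62 ± 3.51 (SD, n = 3 in each).

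Of the 12 tested genes that overlap a window of 500000 bases to either side of Gpr6, Gpr6 itself included, cKO 2 was the highest library for 3. These were Gpr6 at 10.9 CPM, 1.53 times the median of the other 9 libraries, Mical1 at 10.7 CPM, 1.32 times, and Smpd2 at 17.8 CPM, 1.28 times. cKO 2 was the lowest library for Ddo, Mettl24 and Cdc40 in the same window. The share of all genes tested with cKO 2 highest or lowest was not determined, so no local pattern is read from these counts.

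Penk encodes the precursor of the enkephalins, the opioid peptides of indirect pathway neurons (chromosome 4, 4133531 to 4138819, minus strand). It stood at 106, 18.7, 81.1 and 40.3 CPM in Loxp, at 52.1 and 38.8 in Hetero, and at 95.6, 14.5, 54.2 and 48.2 in cKO. The other libraries averaged 4.07 times Loxp 2 and 4.56 times cKO 2, and the groups overlapped. Group means were 61.5 ± 39.4 CPM for Loxp (SD, n = 4), 45.4 ± 9.41 for Hetero (SD, n = 2) and 53.1 ± 33.3 for cKO (SD, n = 4). Leaving out Loxp 2 and cKO 2 gave 75.8 ± 33.2 for Loxp and 66.0 ± 25.8 for cKO, and leaving out the library labelled Loxp 4 gave a Loxp mean of 68.6 ± 45.1 (SD, n = 3 in each).

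Ppp1r1b encodes DARPP-32, which inhibits protein phosphatase 1 once protein kinase A has phosphorylated it (chromosome 11, 98348404 to 98357796, plus strand). Its levels lay at 524, 100.4, 406 and 284 CPM in Loxp, at 281 and 230.0 in Hetero, and at 449, 83.5, 304 and 353 in cKO. The 2 low libraries lay 4.03 and 4.41 times under the mean of the others of their group, and all groups overlapped. Group means were 329 ± 181 CPM for Loxp (SD, n = 4), 256 ± 36.0 for Hetero (SD, n = 2) and 297 ± 155 for cKO (SD, n = 4). The means were 405 ± 120.1 for Loxp and 368 ± 73.7 for cKO without Loxp 2 and cKO 2, and 343 ± 219 for Loxp without the library labelled Loxp 4 (SD, n = 3 in each).

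Pde10a encodes the phosphodiesterase that breaks down cyclic AMP and cyclic GMP in both classes of projection neuron (chromosome 17, 8525372 to 8986648, plus strand). It stood at 170.4, 56.0, 175 and 116 CPM in Loxp, at 135 and 93.3 in Hetero, and at 198, 59.0, 115 and 108 in cKO. The highest library was cKO 1 and the range was 3.53-fold, with the groups overlapping. Group means were 129 ± 55.9 CPM for Loxp (SD, n = 4), 114 ± 29.3 for Hetero (SD, n = 2) and 119.9 ± 57.5 for cKO (SD, n = 4). Without Loxp 2 and cKO 2 they were 154 ± 33.2 for Loxp and 140.2 ± 49.9 for cKO, and without the library labelled Loxp 4 the Loxp mean was 134 ± 67.5 (SD, n = 3 in each).

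Rgs9 encodes a regulator of G protein signalling that shortens signals of inhibitory G proteins such as those of the D2 receptor (chromosome 11, 109225355 to 109298129, minus strand). Its levels lay at 64.6, 10.1, 49.3 and 36.5 CPM in Loxp, at 42.9 and 23.6 in Hetero, and at 67.6, 9.16, 33.9 and 30.6 in cKO. Hetero 1 exceeded Hetero 2 by 1.81 times, and the other libraries averaged 4.97 times Loxp 2 and 4.81 times cKO 2. Group means were 40.1 ± 23.1 CPM for Loxp (SD, n = 4), 33.3 ± 13.6 for Hetero (SD, n = 2) and 35.3 ± 24.2 for cKO (SD, n = 4). Leaving out Loxp 2 and cKO 2 gave 50.1 ± 14.1 for Loxp and 44.0 ± 20.5 for cKO, and leaving out the library labelled Loxp 4 gave a Loxp mean of 41.3 ± 28.1 (SD, n = 3 in each).

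Syndig1l encodes a membrane protein enriched in the caudate and putamen (chromosome 12, 84677277 to 84698831, minus strand). It stood at 79.7, 8.71, 72.7 and 37.8 CPM in Loxp, at 46.1 and 32.8 in Hetero, and at 73.3, 14.2, 46.8 and 35.0 in cKO. Loxp 2 was the lowest library, with the others of its group at 7.28 times its level, and the groups overlapped. Group means were 49.7 ± 32.9 CPM for Loxp (SD, n = 4), 39.5 ± 9.44 for Hetero (SD, n = 2) and 42.3 ± 24.7 for cKO (SD, n = 4). The means were 63.4 ± 22.5 for Loxp and 51.7 ± 19.6 for cKO without Loxp 2 and cKO 2, and 53.7 ± 39.1 for Loxp without the library labelled Loxp 4 (SD, n = 3 in each). Exons of Penk, Ppp1r1b and Syndig1l overlap exons of A830012C17Rik, 1700003D09Rik and Gm48573 on the opposite strand. Whether the counting used strand is not given in the sources used here, so reads of these pairs cannot be told apart.

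Scaled per transcript length, as FPKM averaged over the 10 libraries, Ppp1r1b was the most abundant of the 9 at 102 and Penk followed at 33.4. Syndig1l at 14.4, Pde10a at 9.66 and Adora2a at 8.23 came next, and Rgs9 at 5.73, Drd1 at 4.55, Drd2 at 4.28 and Gpr6 at 3.84 were lowest. In CPM, the group means ran from Loxp through cKO to Hetero in falling order for 8 of the 9, and from cKO through Hetero to Loxp for Gpr6, whose Loxp mean was the highest of the 3 without Loxp 2 and cKO 2 or without the library labelled Loxp 4. No neighbours in either order differed by more than the SD of the Loxp or cKO libraries.

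Within groups, the SD of log2 CPM was 1.46 for Drd2, 1.25 for Adora2a, 1.17 for Syndig1l, 1.12 for Rgs9, 1.05 for Penk and 0.991 for Ppp1r1b. It was 0.711 for Gpr6, 0.700 for Pde10a and 0.606 for Drd1. The median over all genes tested was 0.204, and the 9 transcripts lay between the 91.1st percentile (Drd1) and the 99.8th (Drd2) of that distribution.

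Promoters of transcripts that were low in both Loxp 2 and cKO 2 are shown beside that of Gpr6, which was highest in cKO 2. RefSeq start sites (GRCm38.p6) were at hand for 5 of the 9, Drd1, Drd2, Gpr6, Pde10a and Rgs9, with 7 start sites in all. The 250 bases before the start of Drd2 (chr9:49340153-49340402, plus strand) and Rgs9 (chr11:109298182-109298431, minus strand) are given 5′ to 3′ with GC boxes (GGGCGG on either strand) in capitals, and those of Gpr6 (chr10:41072291-41072540, minus strand) with a cAMP response element (TGACGTCA) in capitals.
Drd2: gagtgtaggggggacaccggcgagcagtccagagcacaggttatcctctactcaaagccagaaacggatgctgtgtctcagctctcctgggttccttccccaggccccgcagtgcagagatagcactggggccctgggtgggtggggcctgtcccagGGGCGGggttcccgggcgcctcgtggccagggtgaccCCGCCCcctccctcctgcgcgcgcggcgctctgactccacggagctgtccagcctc
Rgs9: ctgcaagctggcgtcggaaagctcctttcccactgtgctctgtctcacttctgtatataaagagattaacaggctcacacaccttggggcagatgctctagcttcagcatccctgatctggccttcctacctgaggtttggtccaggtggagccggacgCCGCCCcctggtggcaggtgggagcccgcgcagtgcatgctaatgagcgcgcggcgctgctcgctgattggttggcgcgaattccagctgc
Gpr6: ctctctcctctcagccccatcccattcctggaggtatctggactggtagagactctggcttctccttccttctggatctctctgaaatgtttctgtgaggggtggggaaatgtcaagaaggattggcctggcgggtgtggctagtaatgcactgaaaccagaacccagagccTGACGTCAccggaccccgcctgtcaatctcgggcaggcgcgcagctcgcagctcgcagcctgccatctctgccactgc
Drd2 held 2 GC boxes and Rgs9 held 1, Drd1 and Pde10a each held 1 in 1 of their 2 windows, and Gpr6 held none. The motif was present in 32.7% of 32851 mouse promoter windows of that length. The palindromic cAMP response element of Gpr6 was present in 1.55% of those windows. AGGTCA, the half-site of retinoid receptors, was searched on both strands and found in none of the 7 windows, against 14% of all windows. The AP-1 site TGACTCA (4.46% of all windows) and the E box CACGTG (6.02%) were not found in them either. None of these motifs overlapped another in the windows shown, and a match to letters is no evidence of binding.

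The mean log2 CPM of the 9 transcripts, here called the striatal level, lay at 5.98, 3.54, 5.71 and 4.76 in Loxp, at 5.24 and 4.78 in Hetero, and at 5.88, 3.69, 5.09 and 4.95 in cKO. Libraries numbered 1 were above their group mean in all 3 groups, by 0.98 in Loxp, 0.23 in Hetero and 0.98 in cKO. Libraries numbered 2 were below it, at −1.45, −0.23 and −1.21. With only 2 libraries in Hetero, its deviations mirror each other by construction and stand for 1 difference. Number 3 lay above the group mean in both other groups, at 0.71 in Loxp and 0.19 in cKO. Number 4 lay at −0.24 in Loxp and 0.05 in cKO, so these 2 groups differed in sign for number 4 alone. Averaged over Loxp and cKO, library 2 minus the mean of the other 3 of its group was −1.78 on the log2 scale. Without Gpr6 it was −2.01. The labels attach no litter, batch or day to the replicate numbers.

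**Figure D2:**
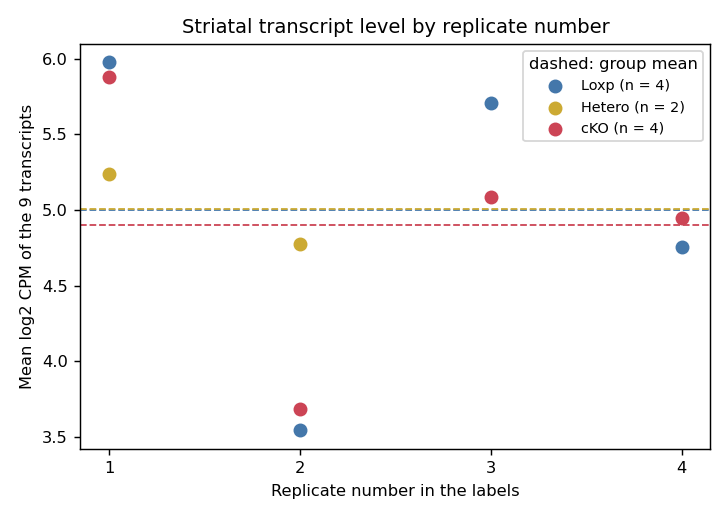
Mean log2 CPM of the 9 striatal transcripts against the replicate number in the labels, 1 point per library; dashed lines are group means (Loxp n = 4, Hetero n = 2, cKO n = 4). Number 2 of Loxp (3.54) and of cKO (3.69) lie over 1 log2 unit below every other library, while Hetero 2 (4.78) does not.

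Loxp 2 and cKO 2 lay below the other 8 libraries for 8 of the 9 transcripts, where 6.08% of all genes tested did so and 5.97% lay above. Loxp 1, Loxp 3 and cKO 1 lay above the other 7 for 8 of the 9 (0.937% of genes tested), and both patterns were met by the same 8 (0.271%, or 50 genes). These shares are background to values that were known when the 9 were listed. Among the 8 libraries other than Loxp 2 and cKO 2, the transcripts still varied together. Pearson r of log2 CPM across those 8 libraries was 0.83 to 0.99 over the 28 pairs without Gpr6, with a median of 0.93, the highest for Drd2 and Penk. The 8 pairs with Gpr6 had r of 0.54 to 0.87, with a median of 0.71, all above 0. Over all 10 libraries the median of the Gpr6 pairs was 0.29. All of these values share the same libraries and scaling factors and are a description.

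The comparison of cKO with Loxp addresses loss of Rxra in excitatory neurons that also carry Cre. Fitted log2 fold changes of the 9 transcripts were small beside their errors. They were −0.15 for Drd1 (SE 0.320), −0.16 for Drd2 (SE 0.632), −0.29 for Adora2a (SE 0.575), −0.21 for Penk (SE 0.499) and −0.14 for Ppp1r1b (SE 0.458). They were −0.11 for Pde10a (SE 0.349), −0.18 for Rgs9 (SE 0.518), −0.23 for Syndig1l (SE 0.527) and 0.18 for Gpr6 (SE 0.374). The 4 cKO libraries spanned nearly the same range as the 4 Loxp libraries, and the groups overlapped for all 9. Complete separation of the groups was found for 1.54% of genes tested. The median was −0.16, with 8 of the 9 below 0, against 0.00033 over all genes, of which 49.9% were below 0.

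The value turned with single libraries. The median was 0.14 without Loxp 1 and 0.11 without cKO 2, and it was −0.63 without cKO 1, −0.50 without Loxp 2, −0.30 without the library labelled Loxp 4 and −0.01 without Loxp 3. Gpr6 stood at −0.06 without the library labelled Loxp 4. With Loxp 2 and cKO 2 both left out the median was −0.18, with values from −0.28 (Syndig1l, SE 0.273) to −0.12 (Pde10a, SE 0.219) and Gpr6 at −0.26 (SE 0.361). The difference in striatal level, cKO minus Loxp, was −0.096 with all libraries, −0.18 without those 2 and −0.18 without the library labelled Loxp 4.

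The comparison of Hetero with Loxp addresses loss of 1 Rxra allele together with Cre. The log2 fold changes were −0.16 for Drd1 (SE 0.396), −0.35 for Drd2 (SE 0.794), −0.39 for Adora2a (SE 0.720) and −0.44 for Penk (SE 0.626). Ppp1r1b stood at −0.36 (SE 0.570), Pde10a at −0.18 (SE 0.431), Rgs9 at −0.27 (SE 0.645), Syndig1l at −0.34 (SE 0.657) and Gpr6 at 0.16 (SE 0.459). Both Hetero libraries lay inside the Loxp range for all 9, where 11.4% of genes tested separated the groups completely. The median was −0.34, with 8 of 9 below 0 (51.8% of all genes). The fitted values compare means of counts, which the high Loxp 1 and Loxp 3 raise. On the mean of logs, which Loxp 2 lowers, the striatal level of Hetero minus Loxp was 0.0093, so the 2 measures differ in sign. Without the library labelled Loxp 4 that difference was −0.07, and Gpr6 stood at −0.08.

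Without Loxp 2 and cKO 2 the Hetero libraries lay lower against the remaining Loxp libraries, with the median of the fitted values at −0.65 and the striatal level differing by −0.48. Ppp1r1b stood at −0.65 (SE 0.211), Penk at −0.73 (SE 0.346), Syndig1l at −0.67 (SE 0.314), Drd2 at −0.70 (SE 0.410) and Adora2a at −0.71 (SE 0.415). Rgs9 stood at −0.58 (SE 0.335), Pde10a at −0.42 (SE 0.249), Drd1 at −0.35 (SE 0.308) and Gpr6 at −0.02 (SE 0.405). Both libraries were left out because of these very transcripts, so these values carry no test. The median was −0.66 without Loxp 2 alone, −0.53 without Hetero 1, −0.42 without the library labelled Loxp 4, −0.12 without Loxp 3, −0.01 without Loxp 1 and −0.0086 without Hetero 2.

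The comparison of cKO with Hetero has Nex-cre in both groups and differs in the second Rxra allele. It shares its Hetero and its cKO libraries with the comparisons above. The log2 fold changes lay between 0.013 (Drd1, SE 0.395) and 0.23 (Penk), with a median of 0.10 and none of 9 below 0 (47.5% of all genes). Both Hetero libraries lay inside the cKO range for all 9, and 9.43% of genes tested separated these groups. The difference in striatal level was −0.11, again of the opposite sign to the fitted values. Without cKO 2 and Loxp 2 the median was 0.41, with Ppp1r1b at 0.53 (SE 0.210) and Gpr6 at −0.24 (SE 0.405). Leaving out cKO 1 gave −0.30, and leaving out Hetero 2 gave −0.12, while leaving out Hetero 1 gave 0.37.

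**Figure D3:**
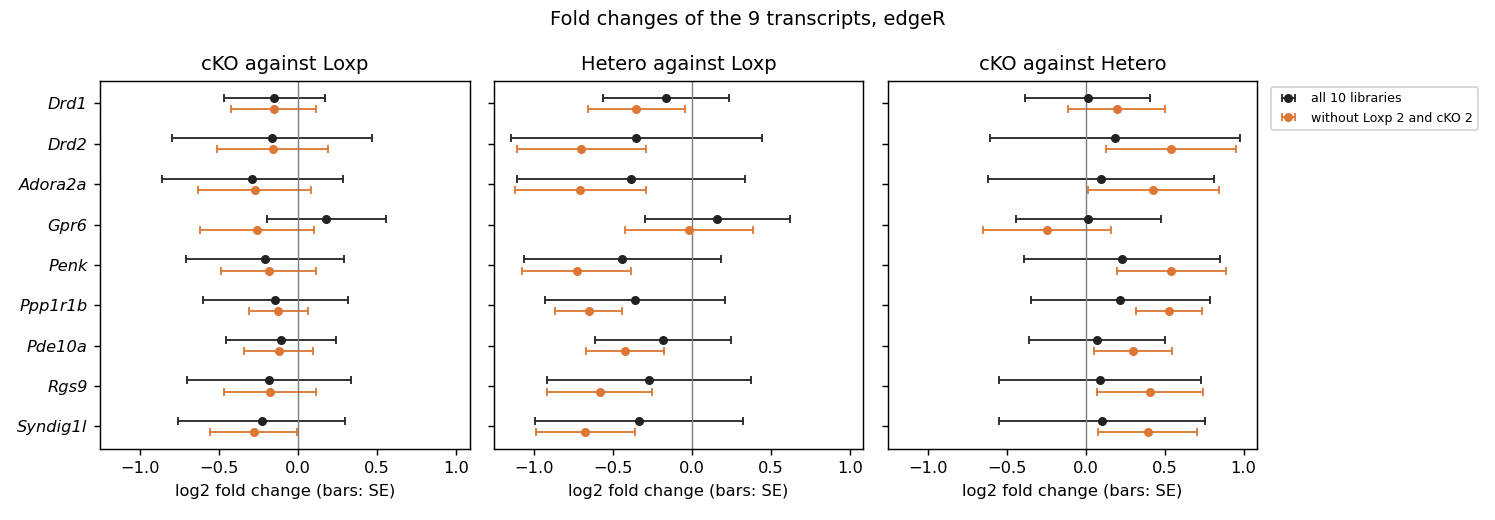
Fitted log2 fold changes of the 9 striatal transcripts in the 3 comparisons, with bars of ±1 SE (edgeR), for all 10 libraries and without Loxp 2 and cKO 2. With all 10, each value lies within 1 SE of 0; without the 2 libraries, which were left out because of these transcripts, 1, 8 and 7 of the 9 lie beyond 1 SE in the left, middle and right panel, and no test follows from that.

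Other genes of the striatum, which are no members of the 9, were read from a list of 25, of which 24 were tested and Drd3, the dopamine receptor D3, was not. With edgeR's adjusted p over all genes tested, 0 of 24 rose and 0 of 24 fell in each of the 3 comparisons, as for all genes (0% called). At an unadjusted p under 0.05, 1 of 24 passed in cKO against Loxp (2.53% of all genes), 0 in Hetero against Loxp (2.54%) and 0 in cKO against Hetero (1.74%). DESeq2 also called 0 of 24 in each comparison. The median log2 fold changes of the list were −0.08, −0.09 and 0.09 in that order.

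Within this list the smallest p in cKO against Loxp belonged to Pdyn, which encodes the dynorphin precursor of direct pathway neurons, at 0.22 (SE 0.0842, edgeR adjusted p = 0.99983). Pdyn also did not share the library pattern, with 28.7 CPM in Loxp 2 and 37.4 in cKO 2 and a range of 28.7 to 40.7 over all libraries. Next came Ebf1, a transcription factor of direct pathway neurons, at −0.35 (SE 0.218), and Chrm4, the muscarinic receptor M4, at −0.14 (SE 0.130). Tac1, the substance P precursor of direct pathway neurons, stood at −0.23 (SE 0.315), Ido1 at −0.46 (SE 0.683) and Dlx6 at −0.12. Foxp1 and Rasgrp2 both stood at −0.09, and Gnal, the olfactory type G protein subunit that couples Drd1 and Adora2a to adenylyl cyclase, at 0.08. None of these passed.

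In Hetero against Loxp those with the smallest p included Gprin3 at 0.37 (SE 0.242), Chrm4 at −0.24, Pde7b at −0.26, Dlx6 at −0.28 and Rasd2 at −0.31 (SE 0.366), and none passed (lowest edgeR adjusted p of the list 0.99981).

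Across libraries, 13 of these 24 genes were lowest in Loxp 2 and cKO 2 and none highest (6.08% and 5.97% of genes tested). Among them were Tac1, Adcy5, Rasd2, Scn4b, Rarb, Meis2, Isl1, Six3, Pde1b, Pde7b, Ido1 and Dlx6. For 14 of 24, Loxp 1, Loxp 3 and cKO 1 were the top 3 (0.937%), and 10 of 24 met both patterns (0.271%). Six3, a homeobox gene of striatal indirect pathway neurons, stood at 5.97, 0.144, 5.90 and 2.23 CPM in Loxp, at 2.71 and 2.16 in Hetero, and at 6.31, 0.216, 3.04 and 2.01 in cKO. It came close to the limit of detection in the 2 low libraries.

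Isl1, a transcription factor of direct pathway and cholinergic neurons, had 0 counts in Loxp 2 and in cKO 2. That allows up to 0.144 and 0.130 CPM (3 counts, counting error only), while the other 8 libraries held 0.239 to 1.30 CPM. Scn4b, a sodium channel beta subunit, stood at 158, 27.1, 165 and 88.3 CPM in Loxp, at 87.5 and 71.5 in Hetero, and at 160.0, 5.79, 112 and 100.2 in cKO. Its level in cKO 2 was the lowest of all, 21.5 times under the mean of the other cKO libraries.

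Some genes of the list varied less across libraries. Ptpn5, the striatum-enriched tyrosine phosphatase STEP, stood at 165 CPM in Loxp 2 and 194 in cKO 2, where the others of their groups averaged 1.24 and 0.98 times as much. Pde1b, a calcium dependent phosphodiesterase, differed by 1.73 and 1.56 times. For Rasgrp2 the others averaged 1.09 and 0.83 times Loxp 2 and cKO 2, and for Ebf1 0.85 and 0.71 times. Tac1 varied more than these, by 1.94 and 2.39 times. A larger SD within groups than that of Tac1 was found for 4 genes of the list, Six3, Scn4b, Isl1 and Ido1.

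Of 20 genes of dopamine and cyclic AMP signalling, 19 were tested and 0 rose or fell in each comparison by edgeR's adjusted p. At an unadjusted p under 0.05 there were 1, 0 and 1 of 19 in the order above (2.53%, 2.54% and 1.74% of all genes). The gene was Slc6a3 in both cases. In cKO against Loxp the smallest p values belonged to Slc6a3, the dopamine transporter, at 1.70 (SE 0.672) from levels of at most 0.584 CPM, Gnb5, the G protein beta subunit that partners Rgs9, at −0.11 (SE 0.108) and Drd4 at −0.33 (SE 0.364). Of the 19, 5 were lowest in Loxp 2 and cKO 2 (6.08% of genes tested), Th, Adcy5, Gnb5 and Pde1b among them. The list shares 5 tested genes with that of other striatal genes, Adcy5 and Pde1b included, so these are counted in both. Gnb5 stood at 163, 114, 149 and 124 CPM in Loxp, at 134 in both Hetero libraries, and at 133, 113, 137 and 126 in cKO. Among 4 tested genes of cholinergic neurons, which in striatum are interneurons, 1 was lowest in Loxp 2 and cKO 2 (6.08% of genes tested), Lhx8 with 0 counts in both. Chat, choline acetyltransferase, was lowest in cKO 2 at 0.821 CPM and next in Hetero 2 at 0.854. The choline transporter Slc5a7 was lowest in the library labelled Loxp 4 at 1.24 CPM with Loxp 2 at 2.39, and the vesicular transporter Slc18a3 was lowest in cKO 4 at 1.42 CPM with Loxp 2 at 1.91.

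Lists for neighbouring tissue and other cells gave a mixed picture, and their part in the result was not tested. Loxp 2 and cKO 2 were the lowest libraries for 6 of 9 markers of layer 6 and subplate, the cortical layers nearest the white matter, for 5 of 8 of GABAergic interneurons and for 2 of 6 of excitatory neurons (6.08% of genes tested). Foxp2, Tle4, Ctgf, Cplx3, Nxph4 and Hs3st4 were those of layer 6 and subplate. Those of interneurons were Gad1, Slc32a1, Sst, Pvalb and Npy, while Gad2, Vip and Lhx6 did not share the pattern. These genes need not be confined to the cells of their list. A part of Foxp2, Gad1 or Slc32a1 from striatal neurons was not tested. Tle4 stood at 76.1, 55.0, 76.7 and 56.6 CPM in Loxp, at 70.0 in both Hetero libraries, and at 68.8, 37.7, 69.9 and 59.3 in cKO. The summed layer 6 and subplate level was 298 and 273 CPM in Loxp 2 and cKO 2 and 324 to 415 in the others, and that of interneurons was 753 and 743 CPM against 934 to 1138 in the others.

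For none of 10 oligodendrocyte genes, 7 of layers 2 to 4, 5 of claustrum and lateral cortex, 5 of hippocampus, 6 of thalamus, 5 of choroid plexus and 6 of meninges were Loxp 2 and cKO 2 the lowest libraries. Both were the highest for Gnb4 of claustrum and Lef1 of thalamus. Over all genes tested, 6.08% were lowest and 5.97% highest in these 2 libraries. In lists of 5 to 10 genes, counts of 0 or 1 are too small to set a list apart from these shares. cKO 2 was also the highest for Nr4a2, Ntng2 and Synpr of claustrum and lateral cortex, and the lowest for Oprk1. The summed claustrum and lateral cortex level was 406 CPM in cKO 2 and 278 in Loxp 2, with 222 to 292 elsewhere. For layers 2 to 4 the sum was lowest in cKO 2 at 682 CPM and stood at 902 in Loxp 2, with 726 to 969 elsewhere. The summed oligodendrocyte level was lowest in cKO 2 at 6293 CPM, followed by Hetero 2 at 6882 and Loxp 2 at 8931. The remaining libraries held 8972 to 11398 CPM. The summed meningeal level was 65.8 CPM in cKO 2 and 111 to 185 elsewhere. Choroid plexus genes summed to 734 CPM in Hetero 2 and to 2.87 to 22.4 in the rest.

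**Figure D4:**
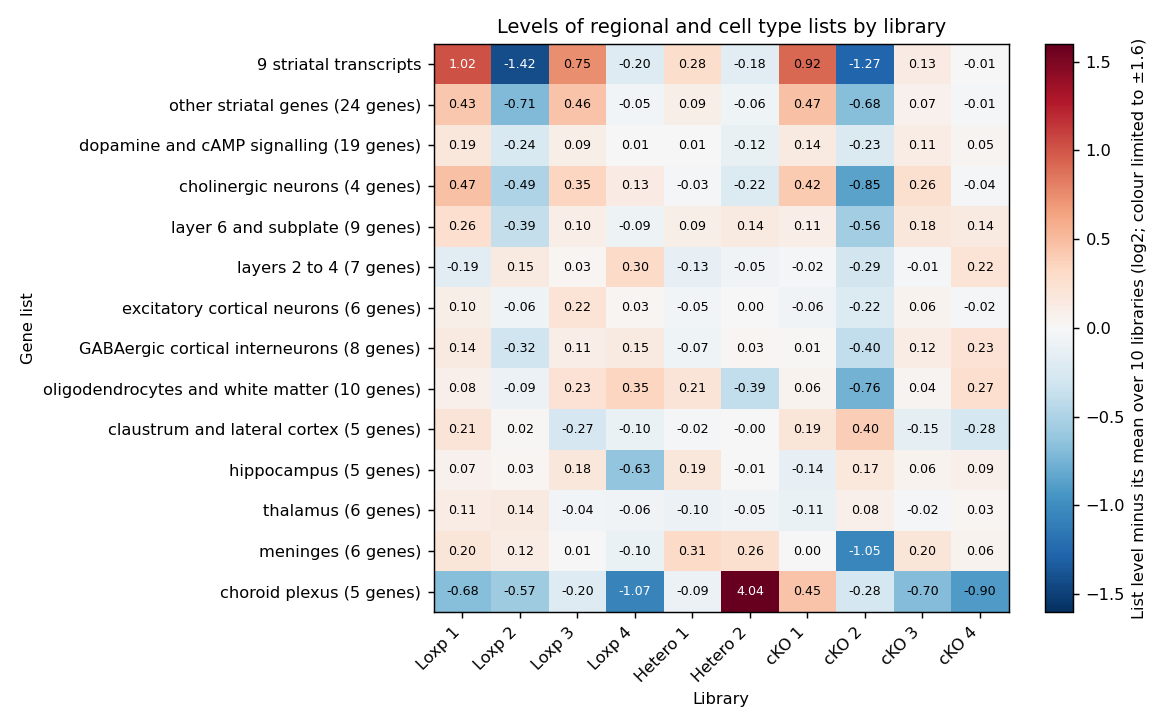
Mean log2 CPM of each gene list in every library minus its mean over the 10 libraries, with the value in each cell and the colour scale limited at ±1.6. The 9 striatal transcripts and the 24 other striatal genes have their lowest values in Loxp 2 (−1.42 and −0.71) and cKO 2 (−1.27 and −0.68). Oligodendrocyte genes are lowest in cKO 2 (−0.76), followed by Hetero 2 (−0.39) and Loxp 2 (−0.09).

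In cKO against Loxp, no gene of these lists passed edgeR's adjusted threshold. Neurod6, at whose locus Cre sits, had the smallest p among excitatory genes at −0.89 (SE 0.193, adjusted p = 0.99983), followed by Slc17a7 and Neurod2 at 0.09 each. Layer 6 and subplate genes Moxd1, Syt6 and Tle4 stood at 0.22, −0.17 and −0.16, and Lamp5, Cux1 and Rorb of layers 2 to 4 at −0.29, −0.11 and −0.17. Interneuron genes Lhx6, Slc32a1 and Gad2 stood at 0.15, 0.14 and 0.07, and the myelin genes Mbp, Mag and Cnp at −0.19, −0.18 and −0.15. Ntng2, Nr4a2 and Synpr of claustrum and lateral cortex stood at 0.15, 0.16 and 0.10. Lct, Prox1 and Spink8 of hippocampus stood at 0.37, 0.17 and 0.46, and Prkcd, Slc17a6 and Ramp3 of thalamus at 0.23, −0.16 and −0.13. Lum, Igf2 and Dcn of meninges stood at −0.38, −0.17 and −0.27, Ttr, Slc4a5 and Clic6 of choroid plexus at 1.63, 0.31 and 0.21, and Lhx8, Chat and Slc18a3 of cholinergic neurons at −0.70, −0.09 and −0.05.

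Among 13355 other genes with a mean log2 CPM above 0, those most like the 9 transcripts were ranked by Pearson r between log2 CPM and the striatal level over the 10 libraries. The 15 nearest included Lrrc10b (r of 0.98), Pde1b (0.98), Cd4 (0.98), Six3 (0.98), Sh3rf2 (0.97), Aktip (0.96), Cpne5 (0.96) and Kcnab1 (0.95). They also included Meis2 (0.94), Slc35d3 (0.93), Rxrg (0.93), Rasd2 (0.93), Rarb (0.93) and Tac1 (0.93). Of the 15, 7 are on the list of other striatal genes, and 11 of the 22 genes of that list that could be ranked were among the 100 nearest. The median r over all ranked genes was 0.02. Since Loxp 2 and cKO 2 stand apart, r was also taken over the other 8 libraries, where the 15 gave 0.79 to 0.97. The points share the library totals, and r is a measure of likeness only.

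Lrrc10b, a leucine-rich repeat gene, stood at 39.7, 6.22, 25.5 and 18.7 CPM in Loxp, at 19.8 and 13.4 in Hetero, and at 34.6, 7.17, 20.8 and 18.0 in cKO. Cd4, best known as a T cell coreceptor, stood at 6.93, 0.335, 6.29 and 2.35 CPM in Loxp, at 4.34 and 2.92 in Hetero, and at 8.95, 0.302, 3.70 and 3.30 in cKO. It was 15.5 times higher in the other Loxp libraries than in Loxp 2 and 17.6 times higher in the other cKO libraries than in cKO 2.

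A pair of nuclear receptor genes of the retinoid family were among the 15. Rxrg, the retinoid X receptor gamma and a relative of the deleted Rxra, stood at 22.3, 1.15, 11.4 and 5.66 CPM in Loxp, at 8.74 and 6.52 in Hetero, and at 13.9, 3.41, 10.6 and 4.77 in cKO. The other libraries averaged 11.4 times Loxp 2 and 2.86 times cKO 2. Rarb, the retinoic acid receptor beta, stood at 6.84, 3.21, 7.51 and 4.11 CPM in Loxp, at 7.61 and 5.71 in Hetero, and at 8.0, 2.72, 5.76 and 5.10 in cKO. Both varied across libraries of a genotype as the striatal transcripts did.

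At the other end, the lowest r belonged to Fgd5 (−0.95), Glt8d1 (−0.95), Ppfibp1 (−0.95), Def8 (−0.94) and the mitochondrially encoded mt-Co1 (−0.92). Their levels moved little beside Lrrc10b, at 4.50 and 3.41 times, but so did that of Aktip, at 1.12 and 1.11 times. The other libraries averaged 0.69 and 0.65 times Loxp 2 and cKO 2 for Fgd5, and 0.84 and 0.86 times for mt-Co1.

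**Figure D5:**
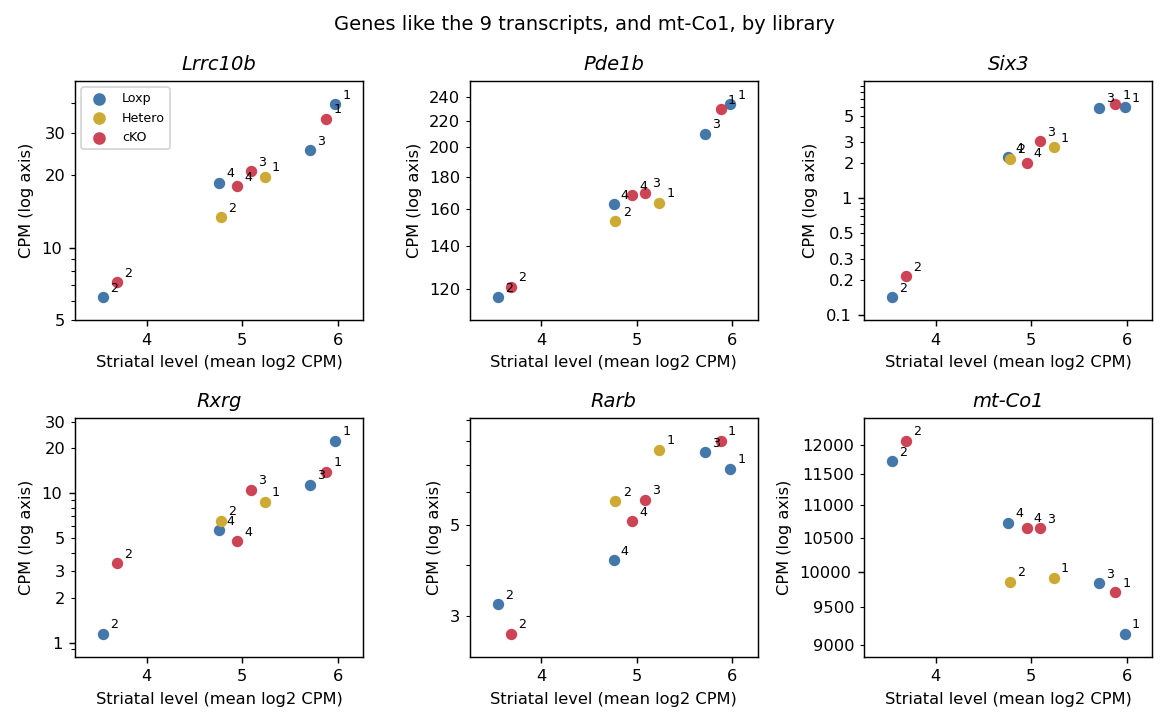
CPM (log axis) of 5 genes like the striatal transcripts and of mt-Co1 against the striatal level (mean log2 CPM of the 9), 1 point per library with its replicate number. Lrrc10b, Pde1b, Six3, Rxrg and Rarb are lowest in Loxp 2 and cKO 2, and mt-Co1 is highest there.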

How the data were processed

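RNA sequencing of 10 S1BF samples was deposited as 1 table of read counts and FPKM per gene and library. The submitters' processing notes name featureCounts 1.5.0-p3 and mm10 for the counts the authors deposited. The aligner, the annotation, the tool behind the FPKM and the strand setting were not given in the sources used here. Each library took 3 µg of RNA, per the labels' protocols. The deposited FPKM served only for levels between genes and as an alternative.

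The members, the lists of other genes, the naming rule and the tests were chosen with earlier results of these data known, and the promoter motifs after the files were read. Named were the 9, the 15 genes most and 5 least like them by r, the 10 (Hetero: 6) other striatal genes and 3 genes of each other list with the smallest p. A few of these are not reported here.

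edgeR 4.0.16 in R 4.3.3 fitted a mean per group to all 10 libraries (TMM, filterByExpr, glmQLFit, glmQLFTest), with Benjamini-Hochberg adjusted p under 0.05 over 18455 genes and SE from the same fit; adjusted p-values are edgeR's. It was tested on simulated data. log2 CPM used a prior count of 2. Loci are from GENCODE M21 and promoters from RefSeq (GRCm38.p6). Alternatives were other scalings, filters and prior counts, DESeq2 1.42.0, 2-group fits, the replicate number as a block, the FPKM on a log2 scale with 0.1 added, each library left out, and, chosen after the data were seen, Loxp 2 and cKO 2 left out, group means without these or without the library labelled Loxp 4, the striatal level as a covariate and the level without Gpr6.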

Additional observations from a re-analysis of the deposited data

Results flagged for a closer look

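In Loxp and cKO, the groups of 4 libraries, 75 genes and the striatal level were checked, and 6 of the 152 sets of 4 values held a library set apart from the other 3 by more than Dixon's critical value, where chance flags about 1 in 20. None was of the 9 transcripts. Of other striatal genes, Foxp1 in cKO 2 was low at a log2 CPM of 6.46 (88.2 CPM against 118 to 124), and Ido1 in Loxp 2 had 0 counts, a log2 CPM of −3.54 with the prior count (1.36 to 1.69 CPM in the others). Slc32a1, the vesicular GABA transporter, was low in Loxp 2 at a log2 CPM of 6.27 (77.3 CPM against 130 to 142). Dcn, a gene of meningeal fibroblasts, was low in cKO 2 at a log2 CPM of 0.64 (1.47 CPM against 5.85 to 6.23). Slc17a7 was low in cKO 1 at a log2 CPM of 11.2 (2363 CPM against 2494 to 2517), and Ramp3 in the library labelled Loxp 4 at a log2 CPM of 4.22 (18.5 CPM against 25.4 to 27.0).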

How the results depend on the processing

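The contrast of library 2 with the others of Loxp and cKO kept its sign under 7 alternatives, between −2.11 (median over the 9) and −1.75 (FPKM). The group differences in striatal level did not hold a sign. Leaving out 1 library moved the striatal level from −0.58 to 0.31 in cKO minus Loxp, from −0.48 to 0.34 in Hetero minus Loxp and from −0.43 to 0.30 in cKO minus Hetero. It moved the median log2 fold change from −0.63 to 0.14, −0.66 to −0.0086 and −0.30 to 0.41 in the same order. The median of Hetero against Loxp thus stayed below 0 in these fits. With the striatal level as a covariate the medians were −0.04, −0.06 and 0.02. Of other striatal genes, 0 were past the threshold under each alternative run. Over all genes, 0 were past it in each comparison (466, 468 and 321 at an unadjusted p under 0.05). With no low-count filter 32, 68 and 39 were, and with DESeq2 0, 11 and 3; the cause was not tested. Leaving out 1 library gave 0 to 1, 0 to 15 and 0 to 14, the highest without cKO 2, Hetero 1 and Hetero 1. Of the 15 genes most like the 9, 12 were kept on deviations from group means, 14 with members scaled, and 4 without Loxp 2 and cKO 2.

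The groups share replicate numbers, but over all genes same-numbered libraries of Loxp and cKO had correlations of deviations of 0.0952, 0.199, 0.0419 and 0.322, and those with Hetero −0.0257 to 0.0230, so the numbers were not taken to pair the samples. As a hint from the data, 8 of 8 Loxp and cKO libraries correlated best with their own number. With the replicate block, all genes past the threshold numbered 1, 1 and 0, the median log2 fold change of the 9 was −0.12, 0.21 and −0.45, and the striatal level differed by −0.096, 0.19 and −0.28. Depth did not limit the 9, which were counted in all libraries, but Isl1, Lhx8 and Ido1 had 0 counts in some.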
